A study of Mus musculus with 17 samples.

Results

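The ERBB ligands of the mouse were followed through 17 RNA-seq libraries of cultured pancreatic stellate cells. The family was taken as the 9 genes Areg, Ereg, Hbegf, Tgfa, Btc, Epgn, Egf, Nrg1 and Nrg2, chosen by symbol. All 9 were found among the 35896 gene IDs counted, and 8 of them, all but Epgn, were among the 13923 genes with enough counts to test. Stellate cells are the resident fibroblast-like cells of the pancreas, and they turn into several kinds of cancer-associated fibroblast around a tumour. The study asked how such cells respond to TGF-beta and to factors released by pancreatic tumour organoids, and what an ERBB inhibitor does to the latter response.

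ERBB ligands are made as membrane-anchored precursors that proteases cut to free a growth factor with an EGF-like fold. EGF, TGF-alpha and amphiregulin (Areg) bind EGFR, and heparin-binding EGF (Hbegf), epiregulin (Ereg) and betacellulin (Btc) bind EGFR and ERBB4. The neuregulins encoded by Nrg1 and Nrg2 bind ERBB3 and ERBB4. ERBB2 has no ligand of its own and works as a partner for the other receptors. A ligand that acts on the cell that releases it gives an autocrine loop, and neratinib, an irreversible inhibitor of the EGFR, ERBB2 and ERBB4 kinases, blocks signalling from such a loop without acting on the ligand itself.

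All cells were wild type (WT) C57BL/6J stellate cells from 2 lines, PSC4 and PSC5, grown in the basement membrane gel Matrigel and collected on day 4 of treatment. Control medium had 5 libraries (PSC4 replicates 1, 2 and 3, PSC5 replicates 1 and 2). TGF-beta, added at 20 ng/mL to control medium, had 4 (PSC4 replicates 2 and 3, PSC5 replicates 1 and 2). Tumour organoid conditioned medium, called CM here, had 4 (replicates 1 and 2 of each line), and CM with 300 nM neratinib had 4 with the same numbers. Each replicate number of a line stood for 1 passage, 23 to 25 in PSC4 and 27 or 28 in PSC5, and the medium code was T8 for every replicate 1 and T6 for every replicate 2 of both CM groups, with no statement of what the codes mean. The labels do not say that replicates came from separate animals or cultures beyond the passage, so the p-values measure the spread between these libraries of 2 lines, which may be partly technical. Neratinib was used at 1 dose, and no group analysed here had neratinib without CM.

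Library totals ran from 22168960 to 29421451 counts, and 3 counts in 1 library stood for 0.101 to 0.137 CPM, counts scaled to equal library totals with factors from the trimmed mean of M-values (TMM). The stellate and fibroblast markers summed to 4074 CPM or more in every library, the 5 endothelial markers to 5.60 or less and the 7 acinar markers to 12.8 or less. The 8 leukocyte markers summed to 13.5 CPM in neratinib PSC4 replicate 1 and to 2.08 to 3.72 in the other 16 libraries, and that library was also the lowest on the second principal component, at -84.1 against -46.9 or more. The 20 epithelial markers summed to 20.5 to 30.7 CPM in control and 18.6 to 25.6 with TGF-beta. In medium T6 they reached 203 and 171 CPM in CM and 165 and 362 with neratinib, against 24.9 and 50.8 in CM and 13.5 and 60.3 with neratinib in medium T8. Of 19 epithelial markers tested, 10 were called higher in CM and 15 higher in CM with neratinib than in control, where 7.05% and 22.2% of all genes were called higher. The 3 libraries labelled PSC4 replicate 1 stood with the PSC5 libraries rather than with PSC4 replicates 2 and 3: on the third principal component they lay between 1.8 and 37, PSC5 between -3.6 and 36.2, and the other PSC4 libraries between -56.8 and -19.7. For this reason each ligand was tested again after moving these 3 libraries to PSC5 in the model, and again after leaving them out. In bulk RNA, fewer cells of a type and less RNA per cell cannot be told apart.

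Areg, Ereg, Epgn and Btc are neighbours. On GRCm38, chromosome 5 holds Epgn at 91027464 to 91035215, Ereg at 91074622 to 91093646 and Areg at 91139599 to 91148432 on the forward strand, and Btc at 91357261 to 91402994 on the reverse strand. These are the only 4 protein-coding genes that the GENCODE M21 annotation places in the 375.5 kb from the start of Epgn to the end of Btc. The RefSeq promoter table for GRCm38.p6 matched 5 of the 9 ligands, Areg, Btc, Epgn, Egf and Tgfa. Ereg, Hbegf, Nrg1 and Nrg2 had no entry. The 250 bases before the start site are shown for 3 of the matched ligands, 2 of them from this cluster, whose calls differed: Areg rose with TGF-beta and with CM, Btc rose with TGF-beta, and Egf was lower than control in all 3 other media. Each runs 5′ to 3′ on the gene's own strand, and capitals mark a motif match, the cyclic AMP response element TGACGTCA in Areg (first base at -61) and TGTCTG in Egf (first base at -78), which reads CAGACA, a SMAD-type motif, on the other strand.
Areg promoter, chr5:91139349-91139598, forward strand: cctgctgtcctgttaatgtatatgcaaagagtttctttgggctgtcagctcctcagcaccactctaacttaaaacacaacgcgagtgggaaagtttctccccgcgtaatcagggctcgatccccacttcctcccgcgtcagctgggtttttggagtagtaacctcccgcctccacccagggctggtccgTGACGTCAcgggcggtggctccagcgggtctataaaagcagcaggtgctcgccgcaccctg
Btc promoter, chr5:91402995-91403244, reverse strand: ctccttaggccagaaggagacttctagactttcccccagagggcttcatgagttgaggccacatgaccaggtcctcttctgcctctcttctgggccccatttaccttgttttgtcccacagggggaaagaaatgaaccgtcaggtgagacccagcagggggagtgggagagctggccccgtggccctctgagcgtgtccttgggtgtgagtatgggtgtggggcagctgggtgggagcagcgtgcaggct
Egf promoter, chr3:129755323-129755572, reverse strand: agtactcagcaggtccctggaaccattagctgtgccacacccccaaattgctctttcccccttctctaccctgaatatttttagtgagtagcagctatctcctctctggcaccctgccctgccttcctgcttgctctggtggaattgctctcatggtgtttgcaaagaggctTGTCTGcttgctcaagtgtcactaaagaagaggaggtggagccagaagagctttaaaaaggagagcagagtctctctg

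Matches were sought on both strands of the 300-base windows of the table, which add 50 bases after the start, for 6 motifs. TGACGTCA was found in 588 of 32851 windows (1.79%) and CAGACA in 21.0%. The others were AP-1 TGANTCA (7.81% of windows), the SMAD palindrome GTCTAGAC (0.213%), TEAD GGAATG (14.7%) and the NF-kB motif (0.411%), and none of these 4 was found in the windows of the 5 ligands. Tgfa had CAGACA on the reverse strand at -91. Btc and Epgn held no match to any of the 6. These are matches of letters, not binding sites.

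The level of each ligand set them in order within a medium, on the scale of mean CPM per kb of exon, which sets counts against gene length. That length is the union of all annotated exons, whichever transcripts were expressed, so the order between genes is approximate. In control medium Nrg1 was highest at 7.7, followed by Ereg at 5.97 and Hbegf at 5.85. The libraries of Ereg (5.21 to 6.57) lay within the range of Hbegf (3.24 to 7.75), so these neighbours did not differ beyond their spread, and the range of Nrg1 (7.36 to 8.04) overlapped that of Hbegf but not that of Ereg. Areg stood at 1.01, Nrg2 and Btc at 0.587 and 0.585, Tgfa at 0.329, Egf at 0.252 and Epgn at 0.0402, with overlap between Areg and Nrg2, Nrg2 and Btc, and Tgfa and Egf. With TGF-beta the order was led by Hbegf at 25, ahead of Ereg at 5.7, Areg at 4.24 and Nrg1 at 1.64, and no other ligand reached the lowest Hbegf library (17.6). In CM it was led by Ereg at 19, ahead of Hbegf at 5.6, Nrg1 at 4.84 and Areg at 3.34, of which Hbegf and Nrg1, and Nrg1 and Areg, overlapped. With neratinib Ereg was again in front at 18.3, and Hbegf (4.39), Nrg1 (2.66) and Areg (1.62) followed, each overlapping the next. The ligand with the highest mean was a different one in control, TGF-beta and CM.

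As a share of the summed CPM per kb of the 7 EGFR ligands in a library, Hbegf made up 40.6% ± 10.4 (SD, n = 5) in control, 68.7% ± 2.28 (SD, n = 4) with TGF-beta, 19.9% ± 6.37 (SD, n = 4) in CM and 17.1% ± 4.72 (SD, n = 4) with neratinib. Ereg made up 43.6% ± 10.1, 16.3% ± 3.55, 64.9% ± 8.26 and 72.6% ± 6.66 in the same order of media. Areg held 7.11% ± 1.68, 11.3% ± 2.84, 11.8% ± 1.64 and 6.44% ± 1.88. Each of Tgfa, Btc, Epgn and Egf had a mean share of at most 4.16% in any medium. These shares rest on the same exon lengths and are approximate between genes.

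**Figure D1:**
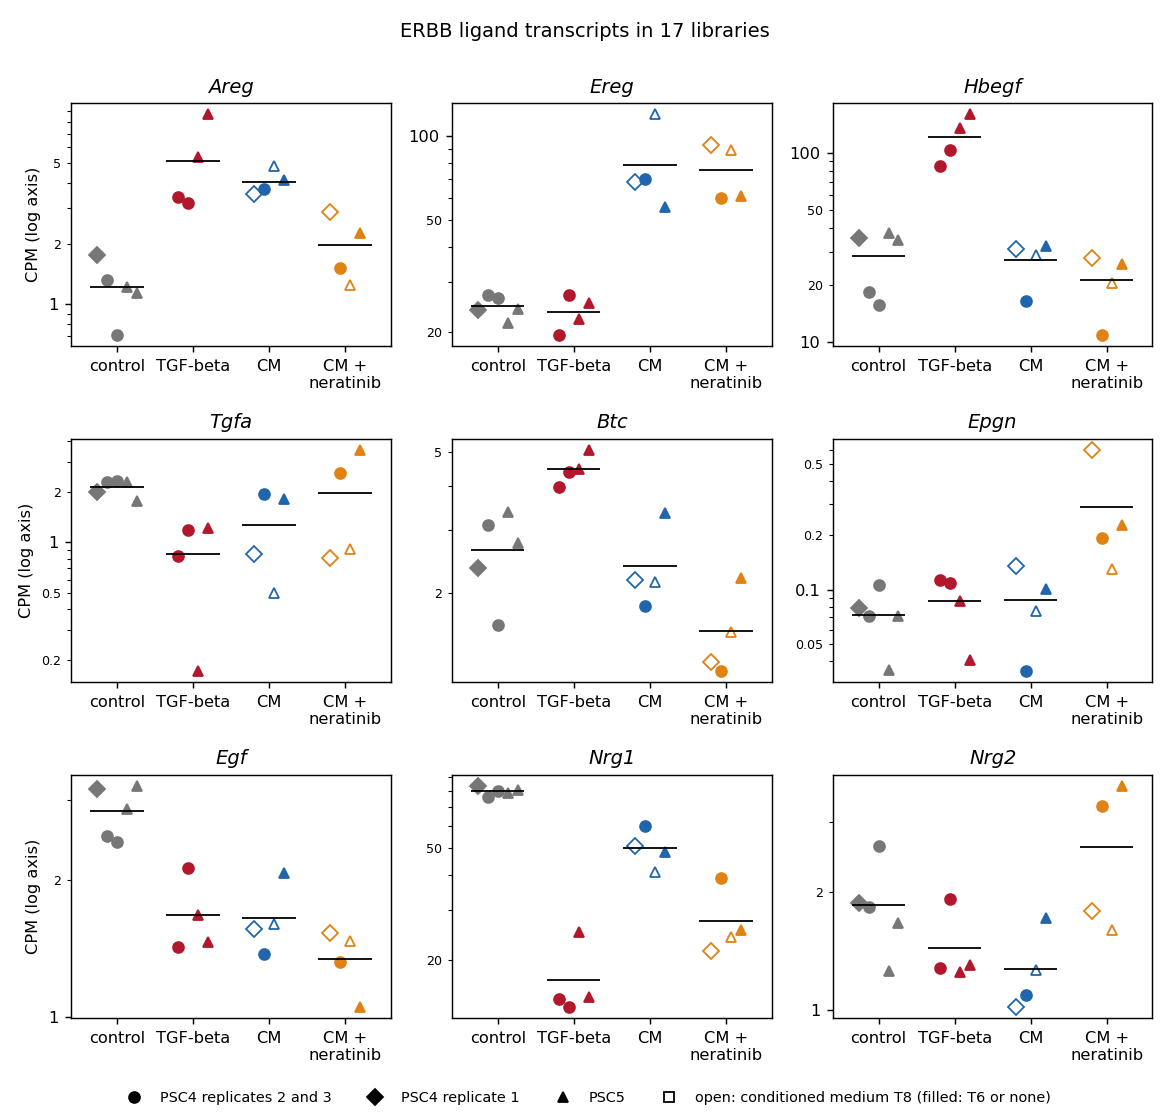
Level of each of the 9 ligands in each of the 17 libraries, in CPM on a log axis, by medium; bars are group means, the symbol gives the line and replicate, and open symbols are conditioned medium T8. Hbegf stands high with TGF-beta alone (85.2 to 159 CPM), Ereg in both CM groups (55.9 CPM or more), Areg with TGF-beta and CM, and Nrg1 is highest in control (76.2 to 83.2 CPM).

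TGF-beta raised 3 EGFR ligands, Hbegf, Areg and Btc, and lowered Nrg1 and Egf. Of the 8 ligands tested, 3 were called higher and 2 lower (edgeR, adjusted p under 0.05). Over all genes 40.2% were called in this comparison, 19.7% higher and 20.5% lower, and the median log2 fold change was -0.21 over the ligands and -0.02 over all genes. In 6 of the 8 ligands the TGF-beta and control libraries did not overlap, as for 32.7% of all genes tested.

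Hbegf, a ligand held on the cell surface and by heparan sulphate until it is shed, is on chromosome 18 (36504927 to 36515805, reverse strand). It had 85.2, 104, 135 and 159 CPM in the TGF-beta libraries PSC4 replicates 2 and 3 and PSC5 replicates 1 and 2. In control it had 35.2, 18.4 and 15.7 CPM in PSC4 replicates 1, 2 and 3 and 37.5 and 34.7 in PSC5. Every TGF-beta library was above every control library, and PSC5 was above PSC4 with TGF-beta. The group mean was 28.3 ± 10.4 CPM (SD, n = 5) in control and 121 ± 32.8 (SD, n = 4) with TGF-beta. On the log2 scale the fold change was 2.04 (SE 0.27, edgeR adjusted p 3.25e-05). The spread in control was a split: PSC4 replicate 1 stood with PSC5, and the other PSC4 libraries were lower.

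Areg, which encodes amphiregulin, had 3.38 and 3.18 CPM with TGF-beta in PSC4 and 5.33 and 8.70 in PSC5. In control it had 1.75, 1.32 and 0.705 CPM in PSC4 replicates 1, 2 and 3 and 1.22 and 1.13 in PSC5, from 20 to 44 counts a library. The groups did not overlap, and the log2 fold change was 2.00 (SE 0.33, edgeR adjusted p 0.000226). The effect was larger in PSC5 than in PSC4 by 1.19 on the log2 scale (SE 0.59, unadjusted p 0.0669), which did not pass the test of that difference in edgeR (adjusted p 1).

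Btc, betacellulin, averaged 2.64 ± 0.69 CPM (SD, n = 5) in control and rose with TGF-beta to 4.47 ± 0.439 (SD, n = 4). The TGF-beta libraries had 3.98, 4.37, 4.47 and 5.04 CPM and the control libraries 1.62 to 3.38 with a median of 2.77, without overlap. Its log2 fold change was 0.73 (SE 0.20, edgeR adjusted p 0.00876). Ereg, which adjoins Areg, had 19.4 to 27 CPM with TGF-beta and 21.5 to 27.1 in control, and the groups overlapped (log2 fold change -0.07, SE 0.20, edgeR adjusted p 0.808).

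Nrg1, which encodes the ERBB3 and ERBB4 ligand neuregulin 1, is on chromosome 8 (31814551 to 32884029, reverse strand). It had 83.2, 76.2 and 80.2 CPM in control PSC4 replicates 1, 2 and 3 and 78.4 and 80.3 in PSC5. With TGF-beta it had 14.5 and 13.6 CPM in PSC4 and 25.1 and 14.8 in PSC5. All TGF-beta libraries were far below control, and PSC5 replicate 1 was above the other 3. The log2 fold change was -2.23 (SE 0.20, edgeR adjusted p 1.16e-06). Control was the medium in which Nrg1 varied least, at 79.7 ± 2.62 CPM (SD, n = 5).

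Egf, the founding member of the family, is on chromosome 3 (129677565 to 129755316, reverse strand), and had 2.84 ± 0.37 CPM (SD, n = 5) in control and 1.67 ± 0.323 (SD, n = 4) with TGF-beta, without overlap. Its log2 fold change was -0.76 (SE 0.19, edgeR adjusted p 0.00559). Tgfa, on chromosome 6 (86195223 to 86275719, forward strand), had 0.826, 1.19, 0.172 and 1.22 CPM with TGF-beta and 1.77 to 2.33 in control. These groups did not overlap either, but the test missed the threshold (log2 fold change -1.31, SE 0.55, edgeR adjusted p 0.0701). With a replicate block, which compares libraries of the same line and number, Tgfa was called (-1.69, adjusted p 0.00581), and with DESeq2 as well (-1.30, adjusted p 0.0433). The lowest value rests on 4 counts. Nrg2 showed no call (-0.35, SE 0.30, edgeR adjusted p 0.38).

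A known TGF-beta target moved in these libraries too: the extracellular matrix regulator Ccn2 rose by 2.33 on the log2 scale (SE 0.30, edgeR adjusted p 3.18e-05). The summed stellate and fibroblast markers were 9904 to 20440 CPM with TGF-beta and 5445 to 6976 in control, and their part in the ligand results was not tested.

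**Figure D2:**
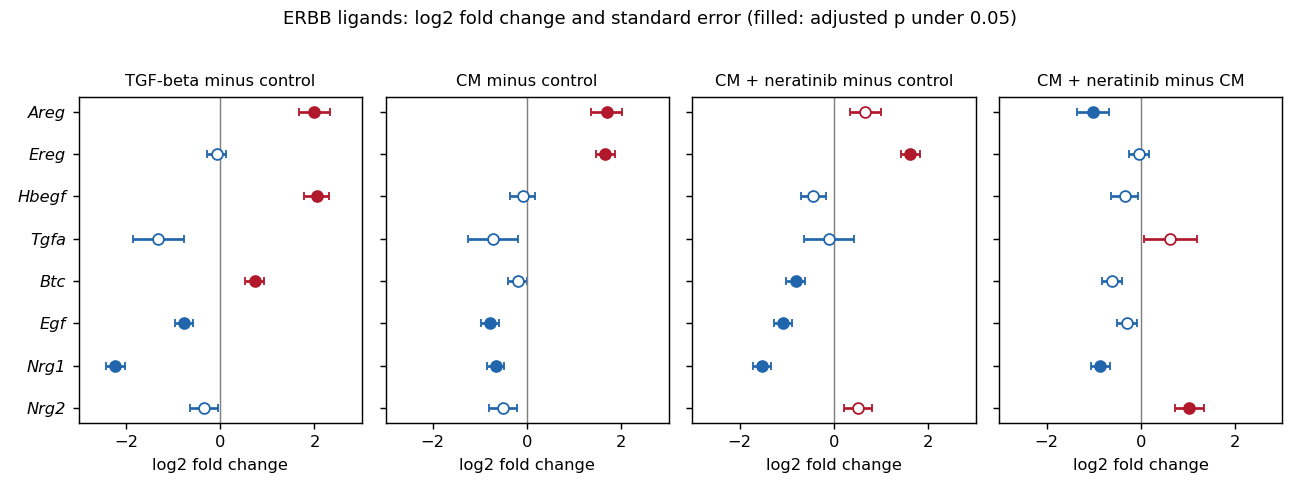
Log2 fold change of the 8 tested ligands with its standard error in 4 comparisons; filled points passed an adjusted p of 0.05, red is above 0 and blue below 0. Hbegf is at 2.04 with TGF-beta and -0.09 in CM, Ereg at -0.07 and 1.66, and Nrg1 lies below 0 in all 4 panels.

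Conditioned medium raised Ereg and Areg and lowered Egf and Nrg1, and no change was called for Hbegf. Of 8 ligands, 2 were called higher and 2 lower, where 14.2% of all genes were called (7.05% higher, 7.14% lower) and the median log2 fold change was -0.35 over the ligands and 0 over all genes. With the replicate block the number of called genes rose from 1976 to 3240, and the calls among the ligands were again 2 higher and 2 lower. The groups did not overlap in 4 of the 8 ligands, as in 19.7% of all genes.

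Ereg encodes epiregulin, a ligand of low affinity and long-lasting signal. It had 68.3 and 70 CPM in CM in PSC4 replicates 1 and 2 and 119 and 55.9 in PSC5 replicates 1 and 2. Control libraries lay between 21.5 and 27.1 CPM with a median of 24.2, and none reached the CM range. The mean was 78.3 ± 27.9 CPM (SD, n = 4) against 24.6 ± 2.24 (SD, n = 5), and the log2 fold change was 1.66 (SE 0.20, edgeR adjusted p 0.00017). Within CM 3 of the 4 libraries were close to each other and PSC5 replicate 1 was above them.

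Areg had 3.50 and 3.74 CPM in CM in PSC4 replicates 1 and 2 and 4.86 and 4.12 in PSC5 replicates 1 and 2, all above the highest control library at 1.75. Its log2 fold change was 1.68 (SE 0.32, edgeR adjusted p 0.00417), and between CM and TGF-beta it differed by -0.31 (SE 0.33, adjusted p 0.498), with overlapping groups. Without the 4 T6 libraries the log2 fold change against control was 1.73 for Areg (edgeR adjusted p 0.0376) and 1.91 for Ereg (0.000277). These values rest on 2 CM libraries, whose epithelial markers summed to 24.9 and 50.8 CPM, against 30.7 or less in control.

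Nrg1 was 50.1 ± 7.68 CPM (SD, n = 4) in CM, with 50.8 and 59.9 CPM in PSC4 replicates 1 and 2 and 41.2 and 48.5 in PSC5. No CM library reached the lowest control library at 76.2 CPM. The log2 fold change was -0.67 (SE 0.19, edgeR adjusted p 0.0298). The call was lost in 6 of 9 fits that left out 1 of the CM or control libraries, with values between -0.76 and -0.58. The 6 left out CM PSC4 replicate 1 (adjusted p 0.065), CM PSC5 replicate 1 (0.111), CM PSC5 replicate 2 (0.0628), control PSC4 replicate 3 (0.0514), control PSC5 replicate 1 (0.0598) and control PSC5 replicate 2 (0.0618). With the 3 libraries labelled PSC4 replicate 1 removed, the adjusted p was 0.0524.

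Egf fell in CM to 1.66 ± 0.299 CPM (SD, n = 4), with 1.38 to 2.08 CPM against 2.43 to 3.23 in control and no overlap. The log2 fold change was -0.78 (SE 0.19, edgeR adjusted p 0.0162), and the call was lost without CM PSC4 replicate 2 (-0.70, adjusted p 0.0585), without CM PSC5 replicate 1 (-0.76, adjusted p 0.058) and without the 4 T6 libraries (-0.84, adjusted p 0.0588). Hbegf had 30.8 and 16.4 CPM in CM in PSC4 replicates 1 and 2 and 28.9 and 32.1 in PSC5, inside the control range. Its log2 fold change was -0.09 (SE 0.27, edgeR adjusted p 0.855), and the sign turned to 0.05 without CM PSC4 replicate 2 and to 0.09 without control PSC4 replicate 1. Btc (-0.20, adjusted p 0.562), Tgfa (-0.73, adjusted p 0.397) and Nrg2 (-0.51, adjusted p 0.285) did not pass the threshold in edgeR. Without the 4 T6 libraries Tgfa was at -1.65 (adjusted p 0.0902): its CM values were 0.849 and 0.497 CPM in T8, below every control library, and 1.94 and 1.81 in T6, within the control range.

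CM and TGF-beta were then compared directly. CM libraries had more Ereg (log2 fold change 1.73, SE 0.22, edgeR adjusted p 2.25e-05) and more Nrg1 (1.56, SE 0.20, adjusted p 3.80e-05) than TGF-beta libraries. They had less Hbegf (-2.14, SE 0.29, adjusted p 5.01e-05) and less Btc (-0.93, SE 0.21, adjusted p 0.00326). These 4 of 8 were the ligands whose groups did not overlap, where 35.3% of all genes were called and 31.5% did not overlap. Areg and Egf, which moved the same way from control under both stimuli, were not called between them (Egf -0.02, adjusted p 0.951). The comparisons with control share the control libraries.

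CM with neratinib was set against CM to ask which ligand levels differ when the ERBB kinases are inhibited. Areg and Nrg1 were lower than in CM, Nrg2 was higher, and Ereg stood at 75.7 ± 17.7 CPM (SD, n = 4), close to its CM mean, with no call. Among 8 ligands 1 was called higher and 2 lower, where 20.5% of all genes were called (10.8% higher, 9.63% lower). The median was -0.32 over the ligands and 0.001 over all genes. The groups did not overlap in 2 of the 8, as in 18.7% of all genes. With the replicate block 4563 genes were called in place of 2850, and 4 ligands were called lower in place of 2.

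Ereg had 92.9 and 59.9 CPM with neratinib in PSC4 replicates 1 and 2 and 89.1 and 61.0 in PSC5 replicates 1 and 2. These libraries lay inside the range of the CM libraries. The log2 fold change against CM was -0.05 (SE 0.21, edgeR adjusted p 0.897), and against control it was 1.62 (SE 0.20, adjusted p 3.80e-05). The sign against CM turned in 3 fits that left out a library, to 0.25 without CM PSC5 replicate 1 at most. A miss of the threshold does not show equal levels.

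Areg had 2.85 and 1.52 CPM with neratinib in PSC4 replicates 1 and 2 and 1.25 and 2.24 in PSC5 replicates 1 and 2. All 4 were below the lowest CM library at 3.50 CPM, and they overlapped control. Against CM the log2 fold change was -1.02 (SE 0.34, edgeR adjusted p 0.0453). Against control it was 0.67 (SE 0.33, adjusted p 0.113). The direction against CM held in all 18 alternatives, from -1.34 to -0.80. The call did not: 10 of the 18 lost it, among them 7 of the 8 fits without 1 library (edgeR adjusted p 0.0727 to 0.0983). Of these 8 fits, only that without the neratinib library PSC4 replicate 1 kept it. The replicate block, which holds the pairing of libraries by line and number, kept the call of Areg (-1.1, edgeR adjusted p 0.00939). Neratinib and CM libraries of each line differed by -0.63 more in PSC5 than in PSC4 (SE 0.61, unadjusted p 0.319), and that difference was not called.

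Nrg1 had 21.4 and 39.0 CPM with neratinib in PSC4 replicates 1 and 2 and 24.2 and 25.5 in PSC5 replicates 1 and 2. All were below the CM libraries, the lowest of which had 41.2 CPM. The log2 fold change was -0.86 against CM (SE 0.20, edgeR adjusted p 0.00815) and -1.53 against control (SE 0.20, adjusted p 4.74e-05). Nrg1 was thus lowest with TGF-beta (17.0 ± 5.44 CPM, SD, n = 4), then with neratinib in CM (27.5 ± 7.85), in CM (50.1 ± 7.68) and in control. TGF-beta and neratinib libraries overlapped in Nrg1, since TGF-beta PSC5 replicate 1 at 25.1 CPM was above 2 neratinib libraries. The call of Nrg1 between neratinib and CM was lost in 1 of 18 alternatives, without the T6 libraries (-1.02, edgeR adjusted p 0.0654).

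Nrg2, neuregulin 2, on chromosome 18 (36017652 to 36197380, reverse strand), had 1.79 and 3.31 CPM with neratinib in PSC4 replicates 1 and 2 and 1.60 and 3.71 in PSC5. In CM it had 1.02 to 1.71 CPM, and the groups overlapped. The log2 fold change was 1.02 (SE 0.31, edgeR adjusted p 0.0313), and the call was lost in 8 of 18 alternatives. The replicate block kept the call (0.99, edgeR adjusted p 0.00937). The 5 single libraries that removed it were CM PSC4 replicate 1 (adjusted p 0.0968), CM PSC4 replicate 2 (0.0865), CM PSC5 replicate 1 (0.061), neratinib PSC4 replicate 2 (0.0767) and neratinib PSC5 replicate 2 (0.137). The high values were in medium T6, and without the T6 libraries the value was 0.55 (adjusted p 0.392). Against control Nrg2 was 0.51 higher with neratinib (adjusted p 0.168) and was called with the replicate block (0.60, adjusted p 0.046).

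Btc fell to its lowest level with neratinib, 1.56 ± 0.452 CPM (SD, n = 4), with 1.28 and 1.21 CPM in PSC4 replicates 1 and 2 and 1.56 and 2.20 in PSC5. It was lower than in control by 0.81 on the log2 scale (-0.81, SE 0.21, edgeR adjusted p 0.00627). Against CM it was -0.62 (SE 0.22, edgeR adjusted p 0.0568). It was called against CM in 4 of 18 alternatives, among them the replicate block (-0.61, edgeR adjusted p 0.0487) and DESeq2 (-0.62, adjusted p 0.0427). Egf was also lowest with neratinib, at 1.34 ± 0.213 CPM (SD, n = 4), -1.08 against control (SE 0.20, edgeR adjusted p 0.000662) and -0.30 against CM (adjusted p 0.333).

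Hbegf had 27.7 and 10.8 CPM with neratinib in PSC4 replicates 1 and 2 and 20.4 and 25.9 in PSC5 replicates 1 and 2. Within each line and number the neratinib library was below the CM library. The values were 27.7 against 30.8 CPM in PSC4 replicate 1 and 10.8 against 16.4 in PSC4 replicate 2. In PSC5 they were 20.4 against 28.9 in replicate 1 and 25.9 against 32.1 in replicate 2. Against CM the log2 fold change was -0.34 (SE 0.28, edgeR adjusted p 0.425). The replicate block, which takes out the split between the PSC4 libraries, gave -0.38 (adjusted p 0.0258), and counting PSC4 replicate 1 with PSC5 gave -0.37 (adjusted p 0.0276). Against control the values were -0.43 (SE 0.27, adjusted p 0.21), -0.54 with the block (adjusted p 0.00197) and -0.54 with PSC4 replicate 1 counted with PSC5 (adjusted p 0.00125).

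CM with neratinib differed from control in 4 of the 8 ligands, Ereg higher and Nrg1, Egf and Btc lower, where 43.1% of all genes were called (22.2% higher, 20.9% lower). The groups did not overlap in 3 of the 8, as in 29.4% of all genes. Epgn, which encodes epigen, was too low to test. It had 2, 2, 3, 1 and 2 counts in control, 3, 3, 2 and 1 with TGF-beta and 4, 1, 2 and 3 in CM, all close to the floor of 3 counts. With neratinib it had 14 and 5 counts in PSC4 replicates 1 and 2 and 3 and 5 in PSC5. In a fit of 22704 genes with no filter on low counts, Epgn was called higher with neratinib than in control (edgeR adjusted p 0.0206) and not than in CM (0.126). The highest of its counts was in neratinib PSC4 replicate 1, and Epgn was not tested without that library.

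**Figure D3:**
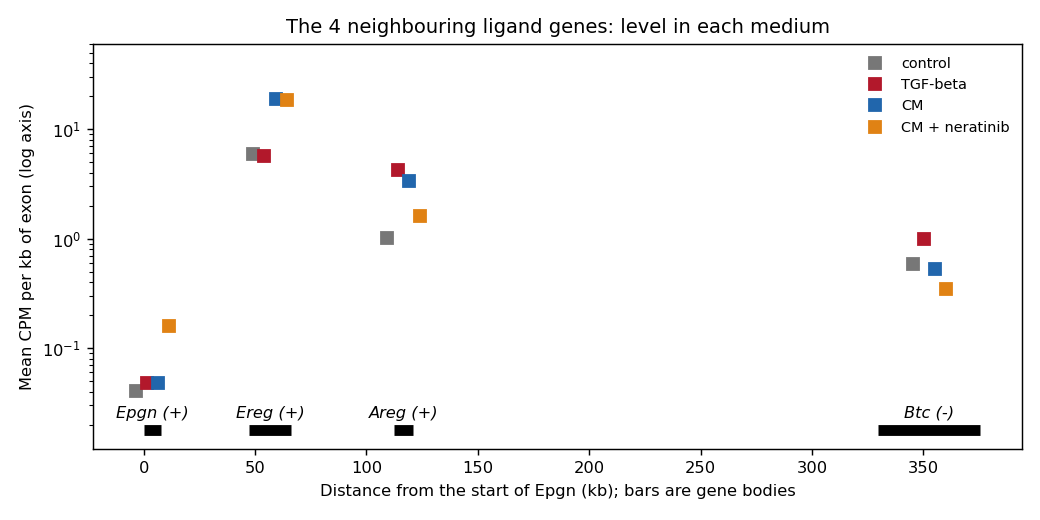
Mean level in CPM per kb of exon on a log axis of the 4 neighbouring ligand genes, placed by distance from the start of Epgn in kb, with 1 square per medium and bars for the gene bodies. Ereg is at 19 in CM and 5.7 with TGF-beta, Areg at 3.34 and 4.24, and Btc at 0.526 and 0.988. Ereg has its highest mean in CM, and Areg and Btc have theirs with TGF-beta.

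The 4 genes on chromosome 5 had 4 patterns. Ereg was high in both CM groups, Areg was high with TGF-beta and in CM, Btc was high with TGF-beta and low with neratinib, and Epgn had at most 4 counts in any library outside neratinib. Across the 17 libraries the log2 CPM of Areg and Ereg had a Pearson correlation of 0.161, Areg and Btc 0.468, and Ereg and Btc -0.675, given as descriptions of libraries that share media and lines.

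Tgfa values were set out by medium code, which cannot be told apart from replicate number and passage within the conditioned libraries. In CM and CM with neratinib it had 1.94, 1.81, 2.57 and 3.53 CPM in the 4 T6 libraries and 0.849, 0.497, 0.808 and 0.908 in the 4 T8 libraries. The T6 libraries were all above the T8 libraries, and the same libraries held the most epithelial transcripts, whose part in the Tgfa level was not tested. The test of T6 against T8 held line and replicate number in the model, through the control and TGF-beta libraries. It is therefore not the plain difference of the values above. It gave 1.21 for Tgfa on the log2 scale (SE 0.57, unadjusted p 0.0547, edgeR adjusted p 0.771), which did not pass. The same test gave -0.71 for Ereg (SE 0.22, unadjusted p 0.00706, adjusted p 0.67) and 0.66 for Nrg1 (SE 0.24, unadjusted p 0.018, adjusted p 0.70), and neither passed. No gene at all was called between T6 and T8 by edgeR. At an unadjusted p under 0.05 it had 906 of 13923 genes (6.51%) and 2 of 8 ligands. DESeq2 called 33 genes, none of them a ligand. The 19 epithelial markers tested, at a median log2 fold change of 2.74, were not called by edgeR either. A miss in this test therefore does not show equal levels. With only the 8 conditioned libraries, where the number is not held, Tgfa was at 1.65 (edgeR adjusted p 0.153). In that fit Ereg was at -0.57 (adjusted p 0.397) and Nrg1 at 0.35 (adjusted p 0.479).

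**Figure D4:**
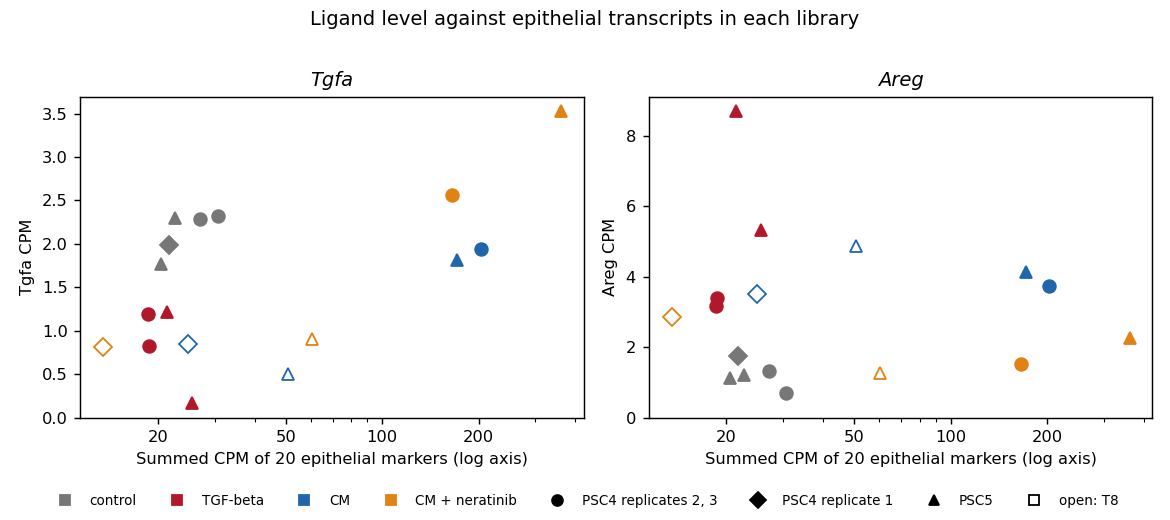
Tgfa and Areg in CPM against the summed CPM of 20 epithelial markers (log axis) in each of the 17 libraries, coloured by medium, with open symbols for medium T8. The 4 T6 libraries lie to the right, at 165 CPM or more of epithelial markers, and hold 1.81 to 3.53 CPM of Tgfa. To the left, at 30.7 CPM or less of these markers, control holds 1.77 to 2.33 CPM of Tgfa and TGF-beta 0.172 to 1.22. Areg in CM is at 3.50 and 4.86 CPM in T8 and at 3.74 and 4.12 CPM in T6.

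Effects of the media were also compared between the lines. No ligand was called in the tests of whether an effect differed between PSC5 and PSC4, for TGF-beta, for CM and for neratinib in CM, and none had an unadjusted p under 0.05. Over all 13923 genes edgeR called 0 in each, with 601, 43 and 237 genes at an unadjusted p under 0.05, and DESeq2 called 29, 0 and 1. The labels of the lines are those given, with PSC4 replicate 1 counted as PSC4.

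Of the 4 receptors for these ligands, Egfr, Erbb2 and Erbb3 had enough counts to test and Erbb4 did not. Egfr, the receptor of 7 of the ligands, had 165 CPM in control on average, and its control libraries showed the split seen in Hbegf: 206 CPM in PSC4 replicate 1, 119 and 109 in PSC4 replicates 2 and 3, and 183 and 209 in PSC5. It rose in CM (215 to 365 CPM, log2 fold change 0.83, SE 0.18, edgeR adjusted p 0.00827) and in CM with neratinib (245 to 397 CPM, 0.77, SE 0.18, adjusted p 0.00358), with no difference called between these (-0.06, SE 0.19, adjusted p 0.845). With TGF-beta it fell by 0.62 (-0.62, SE 0.18, adjusted p 0.0141), a call lost without TGF-beta PSC4 replicate 2 (-0.56, adjusted p 0.0513).

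Erbb2 had 71.3 CPM in control and 76.0 in CM (log2 fold change 0.08, SE 0.08, edgeR adjusted p 0.591). With neratinib it was 58.9 CPM, 0.37 lower than in CM on the log2 scale (-0.37, SE 0.09, edgeR adjusted p 0.01), and with TGF-beta 60.3 CPM (-0.26, SE 0.08, adjusted p 0.023). The call against CM was lost in 3 of 18 alternatives, and that with TGF-beta in 4 of 18, each without 1 library: control PSC4 replicate 1 (adjusted p 0.0522), TGF-beta PSC4 replicate 2 (0.0546), PSC4 replicate 3 (0.069) or PSC5 replicate 2 (0.0686). Erbb3, a receptor with little kinase activity of its own that binds neuregulins, had 3.11 CPM in control and 5.24 with TGF-beta (0.74, SE 0.27, edgeR adjusted p 0.0394), a call lost in 8 of 18 alternatives. Its value was 4.75 CPM in CM and 2.93 with neratinib (-0.71, SE 0.29, adjusted p 0.0935). In CM, Erbb3 had 4.86 and 6.07 CPM in medium T6 and 3.87 and 4.21 in T8. With neratinib it had 2.76 and 4.95 CPM in T6 and 1.62 and 2.38 in T8. The part of epithelial transcripts in the Erbb3 level was not tested. Erbb4, which was not tested, had 4, 0 and 0 counts in control PSC4 replicates 1, 2 and 3 and 6 and 4 in PSC5, and 0 to 2 with TGF-beta. In CM it had 13 and 0 counts in PSC4 replicates 1 and 2 and 8 and 13 in PSC5, against 0 or 1 in each library with neratinib. Of the other neuregulins, Nrg3 had 0 or 1 count and Nrg4 1 to 5 counts summed over the libraries of a medium.

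Genes that restrain or relay ERBB signals were read from 3 lists. Of 7 inhibitors of the receptors, 2 were higher and 0 lower in CM, and 0 were higher and 2 lower with neratinib against CM, where 14.2% and 20.5% of all genes were called in either direction. The list median of log2 fold changes was -0.01 and -0.30 in these comparisons, against 0 and 0.001 over all genes. Errfi1, which encodes the EGFR feedback inhibitor MIG6, had 288 CPM in CM and 199 in control (log2 fold change 0.49, SE 0.12, edgeR adjusted p 0.0153), and fell to 127 CPM with neratinib (-1.19, SE 0.13, adjusted p 8.08e-05). Lrig1, a membrane protein that speeds the loss of ERBB receptors, followed with 0.51 in CM (SE 0.14, adjusted p 0.0247) and -0.59 with neratinib (SE 0.15, adjusted p 0.0108). The call of Errfi1 in CM was lost in 2 of 19 alternatives, among them that without CM PSC4 replicate 1 (0.38, adjusted p 0.0555). That of Lrig1 was lost in 5 of 19 alternatives in CM and in 2 of 18 with neratinib against CM. With TGF-beta 3 of 7 were called, near the 40.2% of all genes. Of these 2 were higher, the ubiquitin ligase gene Cbl (0.51, SE 0.06, edgeR adjusted p 1.62e-05) and Lrig3 (0.50, SE 0.10, adjusted p 0.000956), and 1 was lower, Lrig2 (-0.49, SE 0.14, adjusted p 0.0109). With neratinib against control, where 43.1% of all genes were called, 0 were higher and 3 lower, Errfi1 (-0.70, SE 0.12, adjusted p 0.000522), Socs5 (-0.43, SE 0.13, adjusted p 0.0175) and Lrig3 (-0.31, SE 0.10, adjusted p 0.0206). The call of Lrig3 was lost in 5 of 19 alternatives and that of Socs5 in 2 of 19, in both without neratinib PSC4 replicate 1 (adjusted p 0.0614 and 0.0652).

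Of 16 feedback genes and targets of ERK, the kinase downstream of the receptors, 4 were higher and 0 lower in CM, and 2 were higher and 3 lower with neratinib against CM, where 14.2% and 20.5% of all genes were called. The list median was 0.30 and -0.06. Dusp6, an ERK phosphatase, rose by 0.68 in CM (SE 0.14, edgeR adjusted p 0.0064) and was 0.51 lower with neratinib than in CM (-0.51, SE 0.15, adjusted p 0.0279). The immediate early gene Egr1 (-1.04, SE 0.16, adjusted p 0.000831) and the inhibitor Spry1 (-1.14, SE 0.30, adjusted p 0.0154) fell with neratinib. The call of Spry1 was lost in 3 of 18 alternatives and that of Egr1 in 1 of 18, without the T6 libraries (-0.79, adjusted p 0.0677). Fosl1, a subunit of AP-1, and Ier3 went the other way (0.90, SE 0.23, adjusted p 0.0144, and 0.86, SE 0.25, adjusted p 0.0258). Ier3 and Dusp6 were not followed through the alternatives for neratinib against CM. The call of Fosl1 was lost in 2 of 18 alternatives. Its value ranged in these from 0.52, without neratinib PSC4 replicate 1, to 1.06. The transcription factor Etv1 rose in CM (1.00, SE 0.22, adjusted p 0.00871), as did Spred3 (0.50, SE 0.15, adjusted p 0.0363), whose call was lost in 7 of 19 alternatives, 6 of them without 1 library (adjusted p up to 0.0984). The call of Etv1 in CM was lost in 1 of 19 alternatives (adjusted p 0.053), and Etv1 was not called between neratinib and CM (-0.03, adjusted p 0.946). With TGF-beta 4 of the 16 were higher and 3 lower, 7 in all and near the 40.2% of all genes, led by Spred2 (1.20, SE 0.12, adjusted p 2.41e-06), Dusp4 (1.03, SE 0.22, adjusted p 0.00193) and Etv1 (-0.89, SE 0.23, adjusted p 0.0057).

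Of 11 genes for the release of ligands, the sheddases and their regulators, 2 were higher and 2 lower with TGF-beta, 1 was higher and 3 lower in CM, and 1 was higher and 0 lower with neratinib against CM. Over all genes 40.2%, 14.2% and 20.5% were called in these comparisons, so the counts with TGF-beta and neratinib were not above the background. The list median was 0.119, 0.009 and -0.03. Adam17, the main sheddase of Areg, Ereg, Hbegf and Tgfa, rose by 0.42 in CM (SE 0.09, edgeR adjusted p 0.00961), from 118 ± 9.52 CPM (SD, n = 5) to 156 ± 10.5 (SD, n = 4). Adam12, a sheddase of Hbegf, rose with TGF-beta (1.83, SE 0.31, adjusted p 0.000308) and was lower in CM (-1.45, SE 0.33, adjusted p 0.0112). Timp3, an inhibitor of these proteases, was lower in CM (-1.27, SE 0.39, adjusted p 0.0431), a call lost in 9 of 19 alternatives, and lower with neratinib than in control (-2.18, SE 0.41, adjusted p 0.000787). Adam9 was higher with neratinib than in CM (0.41, SE 0.09, adjusted p 0.0054) and lower with TGF-beta than in control (-0.42, SE 0.08, adjusted p 0.00123), where Adam10, a sheddase of Btc and Egf, was lower too (-0.35, SE 0.06, adjusted p 0.00042). The call of Adam9 between neratinib and CM was lost without the T6 libraries (0.37, adjusted p 0.171).

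**Figure D5:**
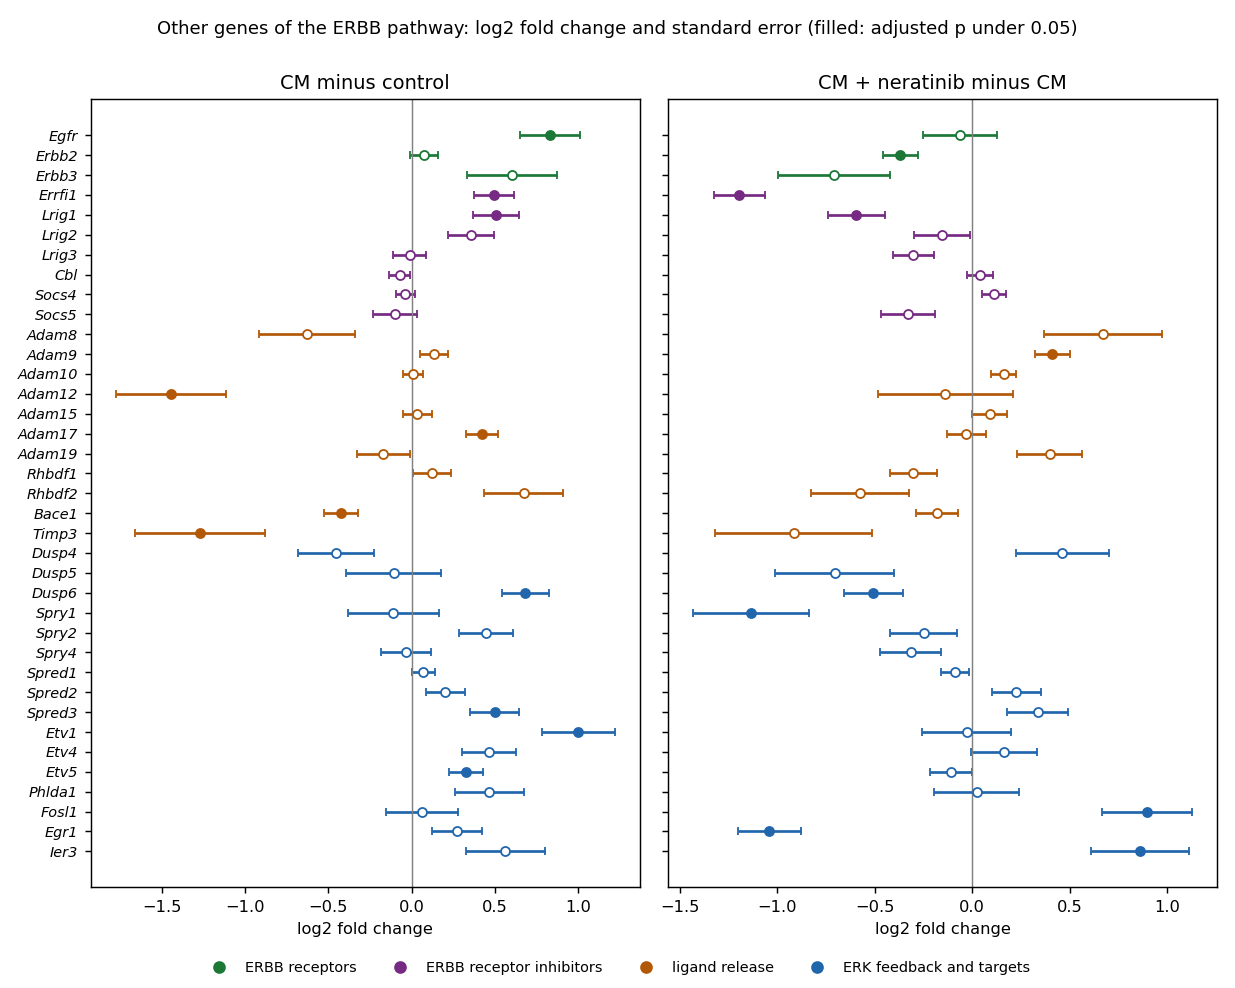
Log2 fold change with its standard error of 37 tested genes of the receptors, their inhibitors, ligand release and ERK feedback, in CM against control and in CM with neratinib against CM; filled points passed an adjusted p of 0.05. Errfi1 (0.49 and -1.19) and Dusp6 (0.68 and -0.51) lie on opposite sides of 0 in the 2 panels, which share the CM libraries.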

How the data were processed

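RNA was sequenced from 17 libraries in 4 media groups. The authors deposited a table of expected counts by Ensembl gene ID for each library, with no scaling for depth or length. Per the submitters' processing notes, Salmon 1.4.0 and DESeq 2 were used with GRCm38/mm10; the annotation release is not given in the sources used here. Of the nonzero values 74.8% were not whole; all were rounded, which moved a total by at most 300.9 counts. Of 35896 gene IDs, 35437 matched a symbol.

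All libraries entered 1 model of group and line in edgeR 4.0.16 (R 4.3.3, limma 3.58.1), tested by quasi-likelihood with TMM factors. The filterByExpr filter, with a minimum count of 10 and a minimum total of 15, kept 13923 genes. A gene is called when its p, adjusted by Benjamini-Hochberg over all of these, is under 0.05, and SE is the standard error of a log2 fold change. CPM are TMM-scaled, and length is the union of GENCODE M21 exons. A group with at most 3 counts in every library is at the floor; as reads carried no molecular identifiers, this covers counting error only. Scripts were tested on simulated data.

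Libraries of different groups with the same line and number also share the passage in the labels. After removal of group means, all 22 such pairs had a correlation across genes above 0.1 (median 0.299, against -0.076 for the same line and another number), so the numbers were taken to pair libraries. The main model holds the line but not this pairing, so its p-values leave the pairing out. The replicate block, which holds it, replaced the line term in an alternative fit. Other alternatives were DESeq2 1.42.0, RLE and upper-quartile factors, other filters, only the groups compared, PSC4 replicate 1 counted with PSC5 or removed, each library left out, and no T6 libraries.

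The members and all lists were chosen with earlier results of these data known. All ligands and receptors were named. For each ligand whose highest group mean was at least 5 CPM, the 3 genes most correlated with it in log2 CPM (prior count 2) were named. From the lists of receptor inhibitors, ligand release and ERK feedback, up to 3 called genes with the largest log2 fold change in a comparison were named. This was done for TGF-beta and CM against control and for neratinib against CM. Between neratinib and control only the inhibitors and Timp3 were named. Between CM and TGF-beta no list gene was named, and of a list of genes that check the stimuli only Ccn2. Ccn2 with TGF-beta, and Dusp6 and Ier3 with neratinib against CM, fall outside that rule and were chosen after their values were seen. Their values in these comparisons were not followed through the alternative fits. A planned search for EGF-like repeats in proteins was not run.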

Additional observations from a re-analysis of the deposited data

Results flagged for a closer look

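In groups of 4 or 5 libraries, the highest or lowest library was set against the gap that 1 group in 20 shows by chance (Dixon's test at the 95% level), over 46 groups of ligand and receptor values, of which 2 passed. Nrg1 with TGF-beta had 25.1 CPM in PSC5 replicate 1, against 13.6 to 14.8 CPM in the other 3 libraries. Nrg2 with TGF-beta had 1.91 CPM in PSC4 replicate 3, against 1.25 to 1.30 CPM in the others. This is about the number that chance gives among 46 groups.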

How the results depend on the processing

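Over all genes, CM against control called 1976 genes, 3240 with the replicate block, 2986 with PSC4 replicate 1 counted with PSC5, 1079 without the T6 libraries and 801 to 1793 without 1 library. Neratinib against CM called 2850, 4563 with the replicate block, 602 with only these 2 groups in the model, 187 without T6 and 1748 to 3685 without 1 library. The tests between lines and of T6 against T8, at 0 called genes, gave 0 to 2 without 1 library for TGF-beta and for T6, 0 to 1 for CM and for neratinib, 2 for TGF-beta with PSC4 replicate 1 removed and 3 for T6 with only the 8 conditioned libraries.

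Among ligands, the 2 called lower in CM were 1 with PSC4 replicate 1 removed or without T6, and 0 to 2 without 1 library. The 1 higher with neratinib than in control was 2 with the replicate block and with no filter on low counts (Epgn), and 1 to 2 without 1 library. The 1 higher with neratinib than in CM was 0 with only these groups, with PSC4 replicate 1 removed or without T6, and 0 to 1 without 1 library. The 2 lower were 4 with the replicate block and 3 with DESeq2 and with PSC4 replicate 1 counted with PSC5 or removed. They were 1 with no filter or only these groups, 0 without T6, and 1 to 2 without 1 library. The replicate block changed no other ligand call than those given with the results. The calls of Areg, Hbegf, Btc, Egf and Nrg1 with TGF-beta, of Areg and Ereg in CM, and of Ereg, Btc, Egf and Nrg1 between CM with neratinib and control held in every alternative run, as did those of Ereg, Hbegf, Btc and Nrg1 between CM and TGF-beta. The cause of the losses was not tested; fits without libraries have fewer samples.

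Values that changed sign were all uncalled. They were Nrg2 between CM and TGF-beta with the replicate block (0.04), and with PSC4 replicate 1 removed Erbb3 (0.10) and Tgfa (0.16) between neratinib and control and Egfr (0.063) between neratinib and CM. Without T6 they were Hbegf in CM (0.087), Nrg2 between neratinib and control (-0.079) and Tgfa between CM and TGF-beta (-0.35). Without 1 library, Hbegf in CM ranged from -0.30 to 0.092 and Ereg with TGF-beta from -0.17 to 0.015. Between neratinib and control Erbb3 ranged from -0.465 to 0.125 and Tgfa from -0.635 to 0.194. Between neratinib and CM Egfr ranged from -0.15 to 0.072 and Ereg from -0.19 to 0.25, and between CM and TGF-beta Egf from -0.14 to 0.14 and Areg from -0.48 to 0.021.

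Removing the T6 libraries was chosen after seeing the data, as was the fit of the 8 conditioned libraries. Upper-quartile factors moved the median of all genes by less than 0.1. Areg, Tgfa, Btc, Egf and Nrg2 had few counts in each library (Tgfa down to 4), which limits the precision of their folds. Protein sequences were not used here.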

Other observations

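Which other genes shared a ligand's pattern was described for the 4 ligands with a mean of at least 5 CPM in some medium. Values are Pearson correlations of log2 CPM over the 17 libraries, which share media, lines and passages, so they describe these libraries. Ereg was followed most closely by Slc16a1 (0.978), which encodes the lactate transporter MCT1 and had 525 CPM in CM and 524 with neratinib against 136 in control. Next were Zc3h12a (0.96), which encodes an RNase that degrades cytokine transcripts, and Slc11a2 (0.955), which encodes a divalent metal transporter. Hbegf was followed by Dusp9 (0.975), a MAP kinase phosphatase gene with 38.7 CPM with TGF-beta against 11.4 in control, by Col7a1 (0.973), the anchoring fibril collagen gene, with 112 against 8.68 CPM, and by Specc1 (0.973).

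Nrg1 was followed by Ttyh3 (0.965), Hspa1b (0.961), which encodes a heat shock protein, and Atp1b1 (0.959), a sodium pump subunit gene that had 106 CPM in control and 9.26 with TGF-beta. Hspa1b has a near-identical neighbour gene, so its counts are uncertain. Areg was followed less closely, by Il18rap (0.92), Acly (0.913), which encodes ATP citrate lyase, and Bub1 (0.882), a gene of the mitotic checkpoint. Among the ligands themselves Hbegf and Btc were the most alike (0.849), and Ereg and Btc the most opposed (-0.675).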
